A study of Picea glauca with 69 samples.

Results

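Full-sib families of white spruce (Picea glauca), each from a controlled cross between 2 numbered trees (CC), were compared with families raised from polymix pollination (PM), in which the pollen was a mixture. The members were chosen by title: 39 of the study's 69 seedlings and 12 of its 20 families carry CC or PM, and they were paired by the tree numbered first in the title, by breeding convention the seed parent. The 6 such trees, 122, 129, 138, 193, 754 and 927, have 1 CC and 1 PM family each. The CC families are 122*1047, 129*756, 138*752, 193*1045, 754*966 and 927*991, with 3 seedlings each and 18 in all. The PM families have 3 seedlings each, except 754_PM with 6, which makes 21. All seedlings were untreated plants in their second growing season, grown in pots in a greenhouse and harvested on day 92. Genotypes within a family are not given, the composition of the pollen mixture is not given in the sources used here, and the design text counts more families than the titles tell apart.

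Some labels disagree with each other. Repetitions 4 to 6 of 754_PM have the sample type of a control, although their titles and breeding strategy are PM, and they were kept as PM. The tissue is called needles in the sample labels and apical internode in the extraction protocol, and no marker gene of either tissue was measured. Since each value comes from bulk tissue, fewer cells of a type and less RNA per cell cannot be told apart.

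Gibberellins are plant hormones that drive stem elongation, and transcripts of their pathway are of interest to tree breeders because shoot growth depends on them. GA20ox and GA3ox encode oxidases of the last steps towards active gibberellin, and GA2ox encodes an oxidase that inactivates it. The hormone binds the receptor GID, and the complex leads to breakdown of DELLA, a repressor of growth. This scheme comes mainly from rice and Arabidopsis. Seedlings of a full-sib family share both parents, whereas seedlings of a polymix family share the seed parent but may have different fathers, so the families differ in the relatedness of their seedlings.

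Transcript levels were measured by real-time quantitative PCR as threshold cycles (Ct), in 3 wells per seedling for the oxidases and 2 for GID and DELLA. Values are given as log2 of the level relative to TIF, the control gene. A step of 1 is a factor of 2 under perfect amplification, and values nearer to 0 are higher levels. TIF itself had a mean Ct of 20.9 in CC and 21.0 in PM families in the wells run with the oxidases, a difference of -0.14 ± 0.41 cycles (SE, n = 6 trees, exact p = 0.781). In the wells run with GID and DELLA the difference was -0.11 ± 0.37 cycles (exact p = 0.781). In 3 seedlings the 2 DELLA wells differed by over 2 cycles. These are repetition 3 of 927*991_CC (Ct 20.9 and 27.3), repetition 3 of 138_PM (27.7 and 23.0) and repetition 2 of 754_PM (27.0 and 24.6). The DELLA comparisons of means and of spread are therefore also given with the well farther from the other seedlings set aside. Other DELLA values are as deposited unless stated.

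The comparison of family means asked whether a known father or mixed pollen went with a different transcript level. For none of the 5 genes did CC and PM families differ beyond the spread between trees. The mean difference ranged from -0.03 for GA2ox to 0.18 for DELLA, which is 0.983-fold to 1.13-fold. By the exact two-sided sign-flip test over 6 trees, 0 of 5 genes passed at 0.05 after Benjamini-Hochberg adjustment and 0 passed before it. The exact permutation test without pairing also gave 0 of 5 before and after adjustment. With 6 trees the smallest exact p is 0.0312, which adjusts to 0.156 for a lone gene over 5, so a single gene could not have passed after adjustment.

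**Figure D1:**
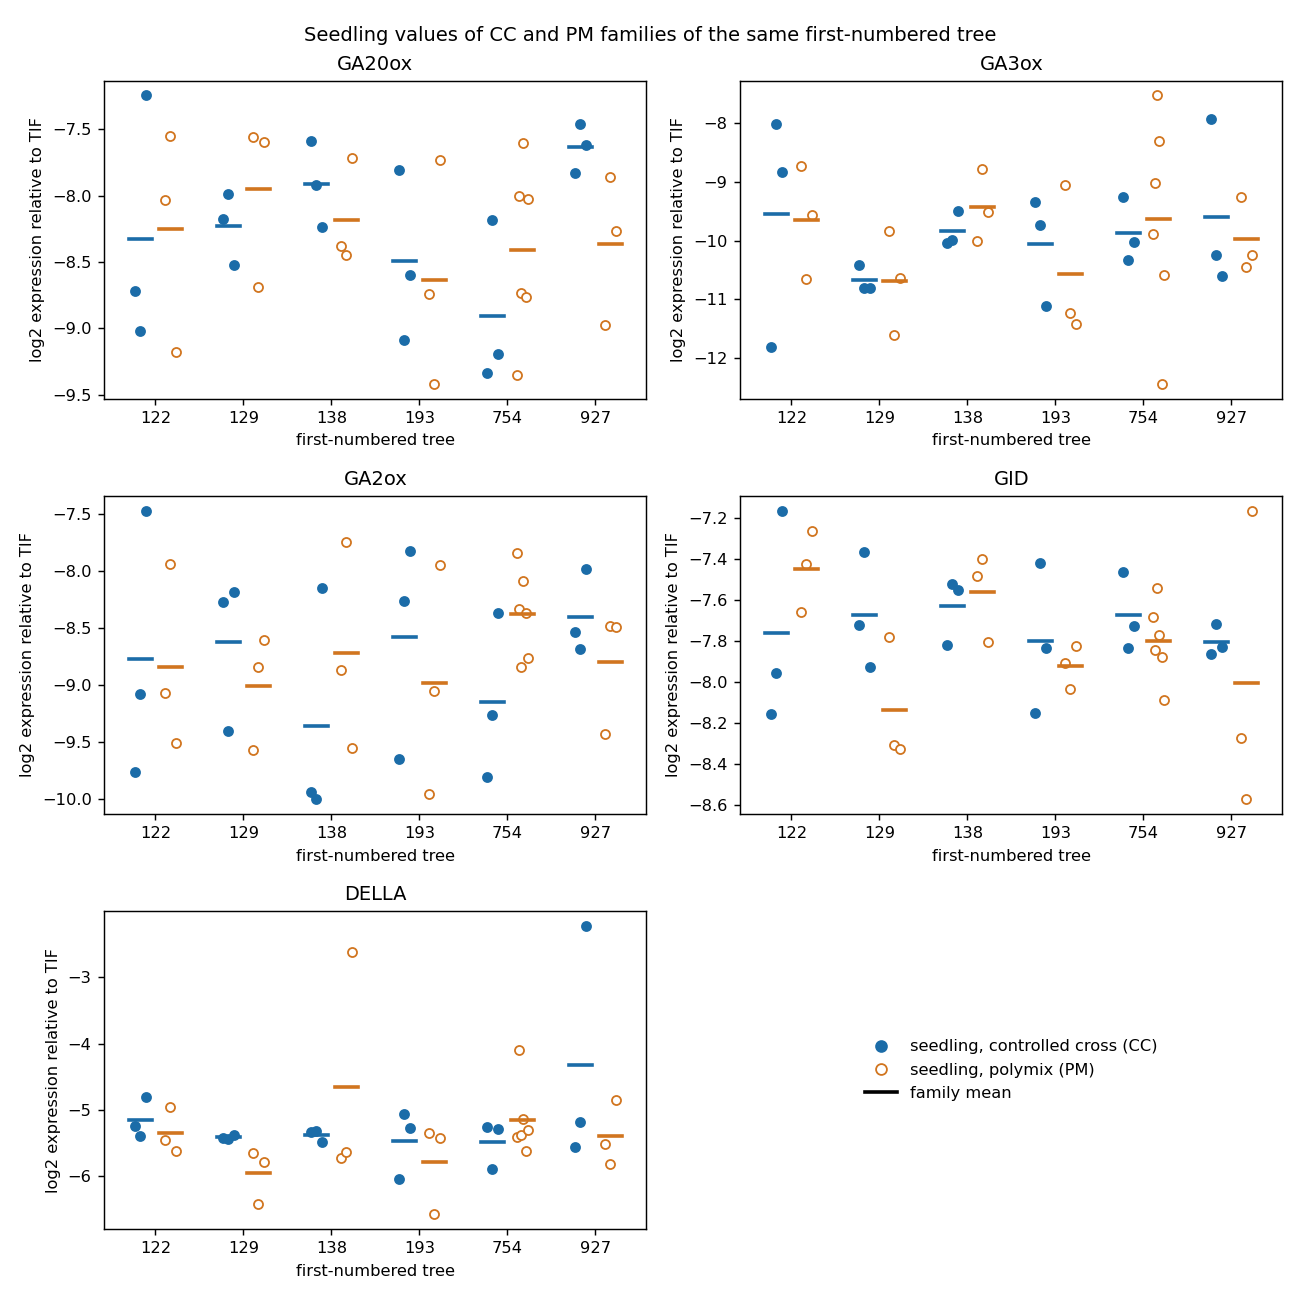
Log2 expression relative to TIF of each gene (vertical axes) in the 39 seedlings, by first-numbered tree and strategy; each point is a seedling and each bar the family mean. CC and PM seedlings of a tree overlap in every panel except GA20ox in tree 927 and DELLA in tree 129.

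Of the synthesis genes, GA20ox averaged -8.25 ± 0.44 in CC (SD, n = 6 families) and -8.30 ± 0.23 in PM families. The 18 CC seedlings ran from -9.34 through a median of -8.18 to -7.25, and the 21 PM seedlings from -9.42 through -8.27 to -7.55, so the strategies covered nearly the same range. CC was the higher family in 3 of 6 trees, and the mean difference was 0.05 ± 0.18 (SE; exact sign-flip p = 0.812, adjusted p = 1). The tree differences ran from -0.49 in tree 754 to 0.73 in tree 927. With 6 trees this range is also the exact 96.9% interval of the mean difference, and it corresponds to 0.712-fold to 1.66-fold.

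Tree 927 was the only tree in which GA20ox separated the seedlings. The seedlings of 927*991_CC had GA20ox values of -7.83, -7.46 and -7.62, and those of 927_PM had -8.97, -7.86 and -8.27. All 3 CC seedlings lay above all 3 PM seedlings, but the nearest pair was only 0.03 apart, less than the error of about 0.15 that the wells give a GA20ox value. In tree 754 the direction was opposite in the family means, -8.90 in CC and -8.41 in PM. There the CC seedlings had -9.34, -8.18 and -9.19 and the PM seedlings ran from -9.35 to -7.60, so the families overlapped.

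GA3ox, whose product makes the active hormone, averaged -9.93 ± 0.41 in CC (SD, n = 6 families) and -9.99 ± 0.53 in PM families. The CC seedlings ran from -11.82 through a median of -10.03 to -7.93, and the PM seedlings from -12.44 through -9.89 to -7.53. Both PM extremes were seedlings of 754_PM, repetition 5 at the low and repetition 3 at the high end, a 30.1-fold span inside a single family. Repetition 5 has the sample type of a control, and repetitions 1 to 3 of 754_PM ran only from -9.89 to -7.53. CC was higher in 4 of 6 trees by a mean of 0.06 ± 0.14 (SE; exact sign-flip p = 0.719, adjusted p = 1). The tree differences ran from -0.40 in tree 138 to 0.51 in tree 193, or 0.756-fold to 1.42-fold. Leaving out the 3 PM seedlings of control type turned the mean difference to -0.08.

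The catabolism gene GA2ox averaged -8.81 ± 0.37 in CC (SD, n = 6 families) and -8.79 ± 0.23 in PM families. Its CC seedlings ran from -10.00 through a median of -8.61 to -7.47, and its PM seedlings from -9.96 through -8.77 to -7.74. CC was higher in 4 of 6 trees, but the 2 trees with a higher PM family had the larger differences, -0.64 in tree 138 and -0.77 in tree 754. The mean difference was -0.03 ± 0.22 (SE; exact sign-flip p = 1, adjusted p = 1), with tree differences up to 0.41 in tree 193. In each of the 6 trees the GA2ox values of the 2 families overlapped.

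GID, the receptor, had the narrowest range of seedlings of the 5 genes in both strategies. Its mean was -7.72 ± 0.07 (SD, n = 6 families) in CC and -7.81 ± 0.27 in PM families. The CC seedlings ran from -8.16 through a median of -7.77 to -7.17, and the PM seedlings from -8.57 through -7.80 to -7.16. CC was higher in 4 of 6 trees by a mean of 0.09 ± 0.11 (SE; exact sign-flip p = 0.438, adjusted p = 1). The tree differences ran from -0.31 in tree 122 to 0.47 in tree 129, or 0.805-fold to 1.38-fold, the tightest interval of the 5 genes with DELLA as deposited. The 6 CC family means of GID lay between -7.80 and -7.63, whereas the PM means lay between -8.14 and -7.45.

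DELLA, the repressor, averaged -5.20 ± 0.45 in CC (SD, n = 6 families) and -5.38 ± 0.46 in PM families as deposited. Its CC seedlings ran from -6.05 through a median of -5.33 to -2.22, and its PM seedlings from -6.58 through -5.45 to -2.62. The highest seedling of each strategy is one with discordant wells. CC was higher in 4 of 6 trees by a mean of 0.18 ± 0.26 (SE; exact sign-flip p = 0.5, adjusted p = 1), with tree differences from -0.72 in tree 138 to 1.08 in tree 927. It was 0.0025 without tree 927 and 0.36 without tree 138, so its size rests on these trees, each of which has a seedling with discordant wells. With the discordant wells set aside the means were -5.38 in CC and -5.55 in PM families. The difference was then 0.17 ± 0.10, with CC higher in 5 of 6 trees and an exact sign-flip p of 0.156, and the tree differences shrank to between -0.12 and 0.54.

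Tree 129 was the only tree in which DELLA separated the seedlings. The seedlings of 129*756_CC had DELLA values of -5.42, -5.44 and -5.37, and those of 129_PM had -5.65, -6.42 and -5.78. All 3 CC seedlings lay above all 3 PM seedlings, and the nearest pair was 0.20 apart. Over all families, discordant wells included, the wells give a DELLA value an error of 0.77 in CC and 0.60 in PM. Those errors are raised by the seedlings with discordant wells, none of which is of tree 129. The median SD between the DELLA wells of a seedling was 0.06 cycles in CC and 0.12 in PM. For DELLA and for GA20ox the families overlapped in 5 of 6 trees, and for GA3ox, GA2ox and GID in all 6. With so few seedlings per family, a separation in some tree can arise by chance.

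**Figure D2:**
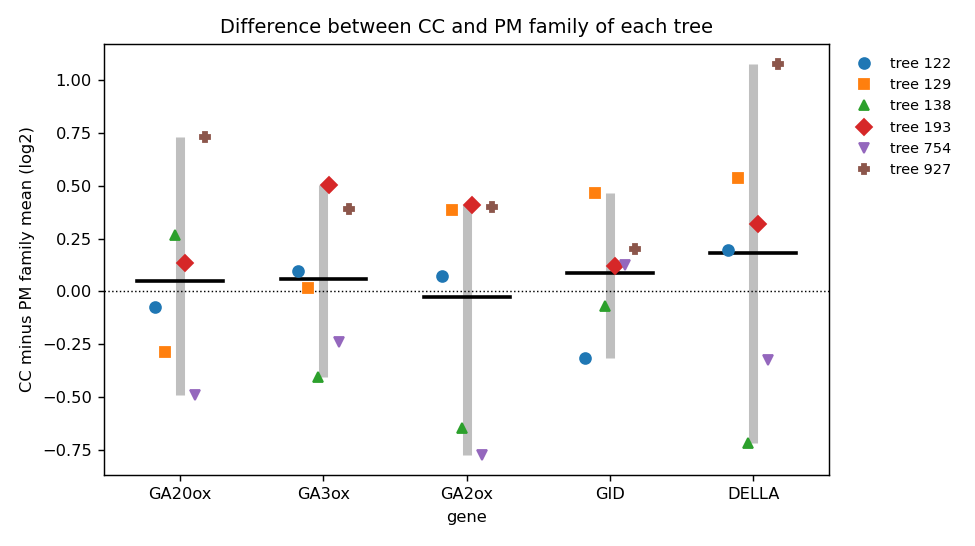
Difference of CC minus PM family means (log2, vertical axis) for each gene (horizontal axis), with a symbol per tree, a black line at the mean and a grey bar over the range of the 6 trees. Every gene has trees on both sides of 0, and the widest range is that of DELLA as deposited, from -0.72 to 1.08.

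In some trees the same strategy had the higher mean in most genes. In trees 193 and 927 the CC family had the higher mean in 5 of 5 genes, and in tree 129 in 4. In trees 138 and 754 it had the higher mean in 1 of 5. The control gene also differed between the families of a tree. In the wells run with the oxidases, TIF Ct in CC minus PM was 1.23 cycles in tree 193 and 0.50 in tree 927, but -1.66 in tree 138 and -0.71 in tree 754. In tree 129, where CC was the higher in most genes, it was -0.44, against the sign in trees 193 and 927. In the GID and DELLA wells it was 1.37 cycles in tree 193, -0.21 in tree 927, -1.27 in tree 138, -0.70 in tree 754 and -0.16 in tree 129. A higher TIF Ct raises the relative values of that set of wells only where the target Ct does not rise with it. The part of TIF in these shifts was not tested.

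In ratios between genes run against the same TIF wells the control gene cancels. The level of synthesis over catabolism, taken as GA20ox and GA3ox averaged, less GA2ox, was -0.28 in CC and -0.36 in PM families, a difference of 0.08 ± 0.16 (SE, n = 6 trees, exact sign-flip p = 0.688). CC was the higher in 3 of 6 trees, with tree differences from -0.52 in tree 129 to 0.57 in tree 138. GID over DELLA was -2.52 in CC and -2.43 in PM families, a difference of -0.09 ± 0.23 (SE, exact sign-flip p = 0.688). Neither ratio differed between the strategies beyond the spread between trees.

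The second comparison was of the spread among seedlings within a family. Spread was measured as the mean absolute difference between 2 seedlings of a family, which has the same expectation for families of 3 and of 6, over 18 pairs in CC and 30 in PM. In no gene did the spread differ between CC and PM families beyond the spread between trees. The mean was a little larger in PM for GA20ox, GA3ox, GID and DELLA and a little larger in CC for GA2ox, but 3 of these directions rest on single trees: CC minus PM turned to 0.14 for GID without tree 927, to 0.0927 for GA3ox without tree 754 and to 0.15 for DELLA without tree 138. The exact sign-flip test gave 0 of 5 genes at an unadjusted p under 0.05, and the adjusted p values lay between 0.781 and 0.875.

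GA20ox seedlings differed by a mean of 0.64 (1.56-fold) within CC families and 0.83 (1.78-fold) within PM families. The difference was -0.19 ± 0.10 (SE), with PM the wider in 5 of 6 trees and an exact sign-flip p of 0.156. It was -0.037 with the sample-number series as a term (exact sign-flip p = 0.781) and -0.36 with all 5 TIF wells as the reference (exact sign-flip p = 0.0625). The widest gaps between strategies were in tree 927, where the mean difference between seedlings was 0.25 in CC and 0.74 in PM, and tree 129, with 0.36 and 0.76. In tree 122 alone the CC family was wider, at 1.18 against 1.08.

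GA3ox was the most variable gene among seedlings of a family. Its seedlings differed by 1.14 (2.21-fold) in CC and 1.30 (2.47-fold) in PM families, a difference of -0.16 ± 0.43 (SE, exact sign-flip p = 0.688). PM was the wider in 4 of 6 trees, most so in tree 754 with 2.15 against 0.72 in CC, and CC was the wider in trees 122 and 927. The 2.15 includes the seedlings of control type, and without them the mean difference between strategies was -0.06 (exact sign-flip p = 0.906). With the sample-number series as a term that difference was -0.07 (exact sign-flip p = 0.844). In 122*1047_CC the GA3ox values were -11.82, -8.01 and -8.84, a mean difference of 2.54 that was larger than in any PM family. In 129*756_CC they were -10.42, -10.80 and -10.81, a mean difference of 0.26. Full-sib families thus spanned both the tightest and the widest GA3ox values among the 12. The lowest seedling of 122*1047_CC is of another sample-number series than its siblings.

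GA2ox seedlings differed by 1.04 (2.05-fold) in CC and 0.89 (1.85-fold) in PM families, a difference of 0.15 ± 0.12 (SE, exact sign-flip p = 0.312), with CC the wider in 4 of 6 trees. GID seedlings differed by 0.35 (1.27-fold) in CC and 0.37 (1.29-fold) in PM families (-0.02 ± 0.18 SE, exact sign-flip p = 0.875). CC was the wider in 4 of 6 trees here as well, while 927_PM, with GID values of -8.28, -8.57 and -7.16, was the widest family at 0.94.

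For DELLA as deposited the seedlings differed by 0.64 in CC and 0.84 in PM families (-0.20 ± 0.46 SE, exact sign-flip p = 0.531). The widest families, 927*991_CC at 2.23 and 138_PM at 2.07, each include a seedling with discordant wells, and fell to 0.25 and 0.49 with those wells set aside. Over all families the values then were 0.31 in CC and 0.52 in PM families, the same mean difference with a smaller error, -0.20 ± 0.11 (SE). PM was the wider in 5 of 6 trees, with an exact sign-flip p of 0.156. For GID over DELLA as deposited the values were 0.65 in CC and 0.83 in PM families (-0.17 ± 0.51 SE, exact sign-flip p = 0.531). With the discordant wells set aside they were 0.31 in CC and 0.50 in PM families, with PM the wider in 5 of 6 trees. The difference was then -0.19 ± 0.08 (SE, exact sign-flip p = 0.0938, adjusted p = 0.188). Because the well nearer the other seedlings was kept, setting wells aside itself tends to narrow the spread. For synthesis over catabolism the values were 1.24 in CC and 1.30 in PM families (exact sign-flip p = 0.781).

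**Figure D3:**
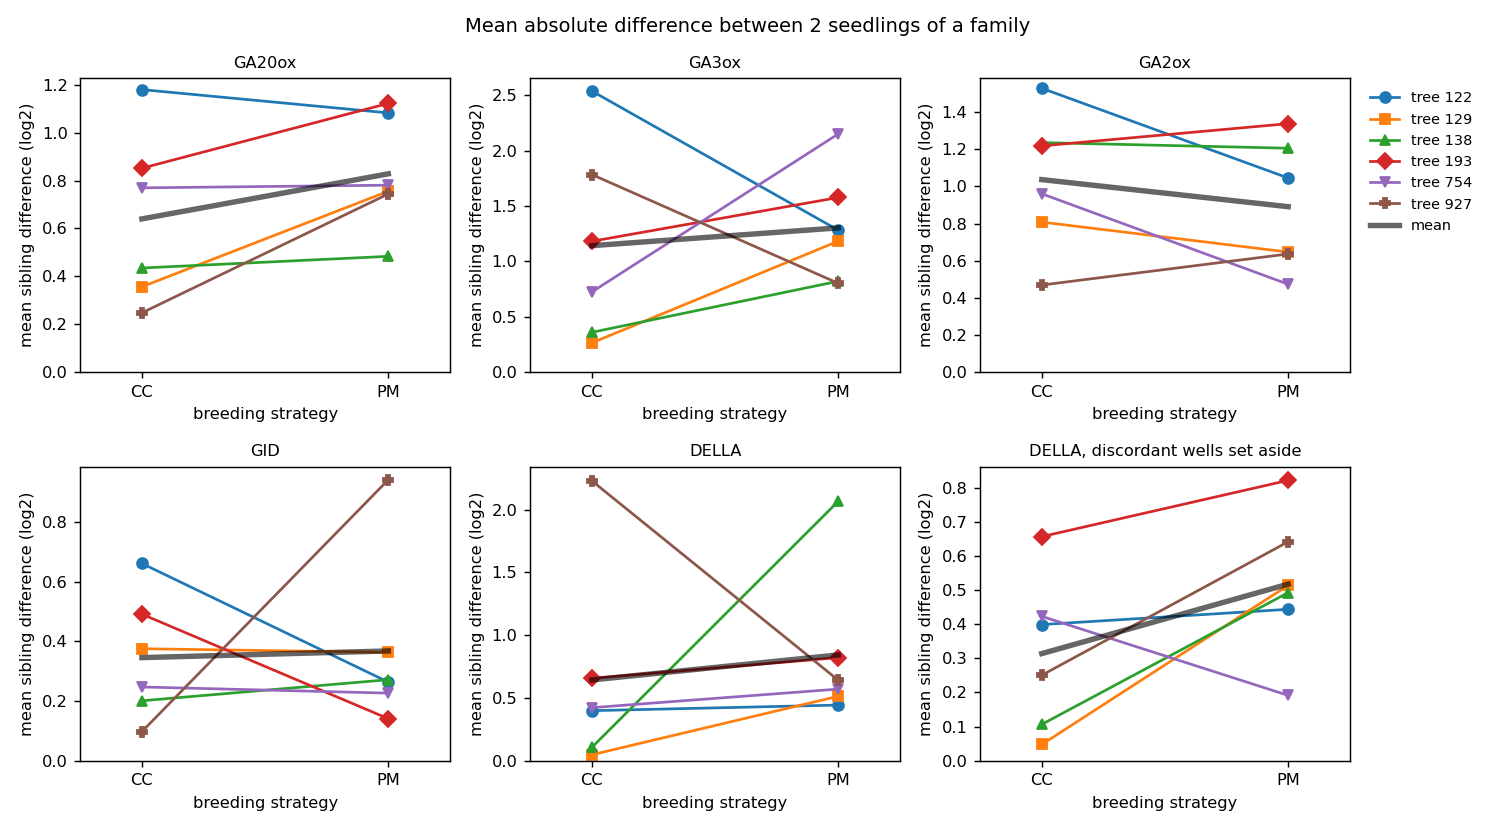
Mean absolute difference between 2 seedlings of a family (log2, vertical axes) in the CC and PM family of each tree, joined by a line, with the mean in grey. In each panel at least 1 tree goes against the direction of the mean, and the scale of the DELLA panel falls from over 2 to under 1 once discordant wells are set aside.

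Differences between wells bear on how much of this spread is measured. The share of the variance among seedlings of a family that wells could account for was 1.54% in CC and 1.89% in PM families for GA3ox, 6.66% and 5.02% for GA20ox, 2.42% and 2.36% for GA2ox, and 21.0% and 19.1% for GID. For DELLA as deposited it was 91.8% in CC and 48.8% in PM families. In 45 of 156 triplets of wells the final well was the average of its partners to within 0.0001 cycles, so the shares for the oxidases may be too small. The spread of the control gene was also compared. Seedlings of a family differed in TIF Ct by 0.94 cycles in CC and 1.17 in PM families in the wells run with the oxidases (exact sign-flip p = 0.188), and by 0.95 and 0.99 in the others (exact sign-flip p = 0.906).

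The third comparison asked how alike seedlings of one family were, against seedlings of other families of the same strategy. The intraclass correlation, which is 0 when family members are no more alike than others, was 0.22 for GA20ox in CC families (one-sided permutation p = 0.183) and 0.21 for GID in PM families (permutation p = 0.153). The other 8 estimates lay between -0.38, for GID in CC families, and 0.005, for DELLA as deposited in PM families. With the discordant wells set aside DELLA had -0.21 in CC and 0.08 in PM families. After adjustment 0 of 10 passed, and the smallest adjusted permutation p was 0.917. The sign of several estimates depended on the processing. With the sample-number series as a term, CC families had 0.04 for GA3ox, 0.06 for GA2ox and 0.03 for DELLA, while GA2ox in PM families fell to -0.31. Without the seedlings of control type GA3ox in PM families had 0.17. GID family means in CC had an SD of 0.07, below the 0.18 that the spread among seedlings alone would give for families of 3.

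Mean absolute differences between pairs of seedlings describe the same question without a test. For GA3ox, seedlings of 1 CC family differed by 1.14, seedlings of a CC and a PM family of 1 tree by 1.11, and seedlings of different CC families by 1.16. For GA2ox the corresponding values were 1.04, 0.85 and 0.93. In GA2ox as deposited the full-sib pairs were the farthest apart of the 3 kinds, and in GA3ox the 3 kinds differed little. These orders changed with the sample-number series, described below, removed. The values in the same order were then 0.95, 1.04 and 1.12 for GA3ox and 0.69, 0.65 and 0.71 for GA2ox. In PM as deposited, pairs within a family differed by 1.64 for GA3ox and pairs of different families by 1.34. That first value counts each pair equally, and 754_PM with 6 seedlings gives 15 of the 30 pairs.

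**Figure D4:**
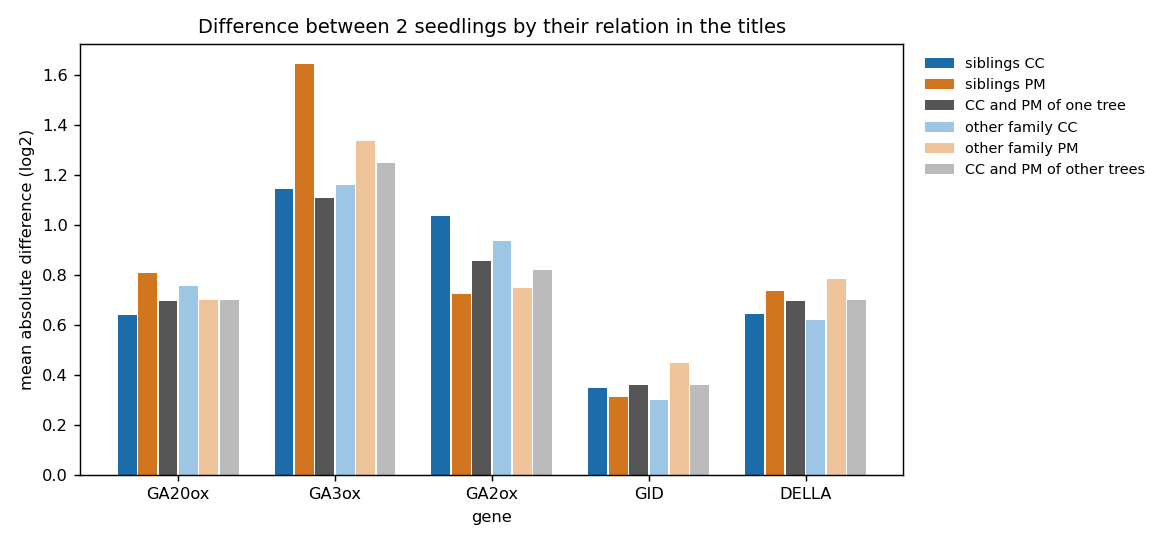
Mean absolute difference in log2 expression between 2 seedlings (vertical axis), for pairs of the same family, of the CC and PM families of a tree, and of other families, by gene. With DELLA as deposited, GA3ox is the highest and GID the lowest gene for every kind of pair, and pairs within a family are the lowest bar only in GA20ox, for CC at 0.64, and in GA2ox, for PM at 0.72.

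Whether a tree's CC and PM families ranked alike was described over the 6 trees. GA3ox had the highest correlation between CC and PM family means, Pearson r = 0.75 (exact permutation p = 0.0708, adjusted p = 0.354) and Spearman rho = 0.54 (exact permutation p = 0.297). Without the 2 trees farthest from the median of the CC means r was 0.42. With the sample-number series, described in the next paragraph, as a fixed term it was 0.025 (exact permutation p = 0.967), and GA20ox then had the highest, 0.52 (exact permutation p = 0.294). The lowest was GA2ox, with r = -0.64 (exact permutation p = 0.157), and 0.22 without the 2 farthest trees. GA20ox had r = 0.30, GID 0.18 and DELLA 0.02 as deposited. For DELLA r was 0.39 with the discordant wells set aside (exact permutation p = 0.465). Tree 129 had the lowest GA3ox family of both strategies, at -10.68 in CC and -10.69 in PM.

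The titles also number the samples, and the offset in Ct between the 2 sets of TIF wells, which steps along these numbers, divides them into 5 series whose meaning the labels do not give. CC and PM seedlings were spread over all of them, with 7 CC and 6 PM in the first, 3 and 3 in the second, 5 and 8 in the third, 1 and 2 in the fourth and 2 and 2 in the last. Within a series the CC minus PM difference ranged from -0.37 to 0.75 for GA20ox, from -0.55 to 1.29 for GA3ox, from -0.36 to 0.46 for GA2ox, from -0.04 to 0.38 for GID and from -0.42 to 1.62 for DELLA as deposited. The 1.62 is of the last series, where a CC seedling has discordant wells. No gene had the same direction in all 5 series. The means weighted over the series were 0.08, 0.06, -0.003, 0.12 and 0.20 in that order, against 0.05, 0.06, -0.03, 0.09 and 0.18 between family means. Most pairs of seedlings of a family came from different series, 15 of 18 in CC and 24 of 30 in PM. For GA3ox these pairs differed by a mean of 1.22 in CC and 1.80 in PM, and pairs from the same series by 0.77 and 1.00. For GA20ox the order was the reverse, 0.56 in CC and 0.77 in PM for pairs from different series against 1.04 and 0.95 within a series. GA2ox pairs were also closer across series, at 1.03 in CC and 0.66 in PM against 1.09 and 0.97. For GID and DELLA the order differed between CC and PM. Pairs within a series were few, 3 in CC and 6 in PM, and no common direction over the genes was seen. The part of the series in the spread among seedlings was not tested apart from the alternative that removes it.

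**Figure D5:**
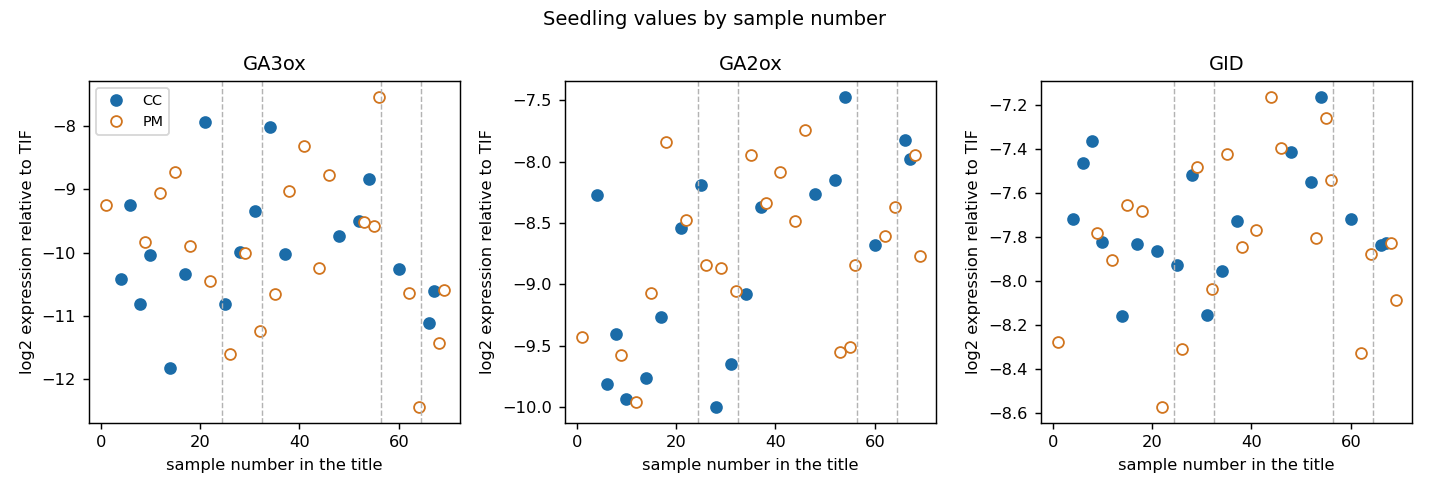
Log2 expression of GA3ox, GA2ox and GID (vertical axes) against the sample number in the title (horizontal axes), with CC seedlings filled, PM seedlings open and the 5 series divided by dashed lines. Both strategies occur in each series.

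Open-pollinated families of the same 6 trees, the study's control, give the level of spread without a chosen cross. Their seedlings differed by a mean of 0.63 for GA20ox, 0.96 for GA3ox, 0.75 for GA2ox, 0.46 for GID and 0.48 for DELLA. The OP family values ranged from 0.23 to 2.45 for GA3ox and from 0.15 to 0.65 for GID.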

How the data were processed

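Threshold cycles (Ct) per well and a normalized sheet were deposited by the authors, per the file headers. On checking, the deposited log2 values are the target's mean Ct less that of TIF in the same set of wells. Of 195 gene values of CC and PM seedlings, 173 equalled this rule within 0.001 cycles and 188 it or a reference of all 5 TIF wells. The 7 others differed by at most 0.0940. No amplification efficiency is given in the sources used here. Expression is the deposited value with its sign turned, and nothing was filtered or imputed.

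Seedlings, which are separate plants, were averaged per family. CC and PM families were paired by first-numbered tree and tested by exact two-sided sign-flip permutation, adjusted by Benjamini-Hochberg over 5 genes and, separately, 2 ratios, with an adjusted threshold of 0.05. Intraclass correlations were tested one-sided with 100000 resamples and adjusted over 10. Correlations over trees used exact permutation of the pairings. The number of wells and families limits the precision, and p-values refer only to the spread between these families. Alternatives were an unpaired test, medians, the linear scale, other TIF references, the sample-number series as a term, the repetition number as a block, seedlings of control type or values whose wells had an SD over 0.5 cycles left out, discordant DELLA wells set aside, and each tree and repetition left out. All 5 genes were named, with the families at each extreme. The members, lists and tests were chosen with earlier results of these data known. Scripts were tested on simulated data and ran in Python 3.11.15 with NumPy 2.4.6 and pandas 2.3.3.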

Additional observations from a re-analysis of the deposited data

Results flagged for a closer look

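In groups of 6 families, or of the 6 seedlings of 754_PM, 9 values stood apart from the other values of their group beyond the critical value of Dixon's test. In all, 35 groups were looked at. Chance flags about 1 in 20 for separate groups of normally distributed values, but these groups share seedlings. The number of flags is therefore only a description. For GID, the mean difference between seedlings of 927_PM was 0.94, far above the other PM families. For DELLA, 927*991_CC had the highest CC family mean, -4.32, and a mean difference between seedlings of 2.23, and 138_PM had one of 2.07 among PM families. In 754_PM the DELLA value of repetition 2, -4.09, was above the other 5 seedlings. For GID over DELLA, 927*991_CC had the lowest CC family mean, -3.48, and a mean difference between seedlings of 2.20, and 138_PM had one of 2.28. These 7 DELLA values each include a seedling whose 2 DELLA wells differed by over 2 cycles, and the DELLA results with those wells set aside stand beside them in the report. For synthesis over catabolism, 193*1045_CC had the widest CC family, with a mean difference between seedlings of 2.07 and seedling values of 1.07, -1.15 and -2.03.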

How the results depend on the processing

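Of 273 alternative values of the differences in means and in spread, 0 had an adjusted p under 0.05, 237 kept the direction reported and 36 turned it. The count of 0 was largely fixed by the design: 84 values leave out a tree, where the smallest exact p is 0.0625, and with 6 trees a lone gene adjusts to at least 0.156 and a lone ratio to 0.0625. Since the main differences are near 0, a turn moves a value across 0 without a call. Mean CC minus PM turned to -0.0763 for GA3ox without the PM seedlings of control type. The repetition number as a replicate block gave the same mean differences, so for means it is not a separate alternative, although both are counted. For GA2ox the mean difference turned to 0.0339 with the sample-number series as a term and 0.0406 on the linear scale. Without values of a well SD over 0.5 it turned to -0.0266 for GA20ox and -0.0656 for synthesis over catabolism, and with medians to -0.14 for GA20ox. The difference in spread turned to -0.11 for GA2ox with the series term and also with the replicate block, to 0.0011 for DELLA with all 5 TIF wells and to 0.0314 for GA3ox without values of a high well SD. The correlation over trees turned to -0.0314 for DELLA without the seedlings of control type, and to 0.28 for GA2ox and -0.60 for GID with the series term, under which that of GA3ox went from 0.75 to 0.025. Causes of these turns were not tested.

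With each tree or repetition left out, mean differences ran from -0.0890 to 0.16 for GA20ox, -0.43 to 0.32 for GA2ox, -0.16 to 0.27 for GA3ox, -0.0127 to 0.17 for GID, 0.0025 to 0.36 for DELLA, -0.24 to 0.0637 for GID over DELLA and -0.38 to 0.55 for synthesis over catabolism. Differences in spread ran from -0.31 to -0.12 for GA20ox, -0.56 to 0.15 for DELLA, -0.22 to 0.40 for GA2ox, -0.44 to 0.20 for GA3ox, -0.11 to 0.14 for GID, -0.59 to 0.19 for GID over DELLA and -0.57 to 0.30 for synthesis over catabolism. Unadjusted exact p values under 0.05 occurred in 3 of the 273, each at the smallest possible 0.0312. They were the spread of GA2ox with all 5 TIF wells (0.32), the mean of DELLA by medians (0.24) and the spread of synthesis over catabolism without repetition 3 (-0.57). Pooling all 5 TIF wells shifts values between the sample-number series, and the part of that shift in the GA2ox spread was not tested.

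No pairing of seedlings by repetition number was seen. Deviations of CC and PM seedlings with the same number correlated at 0.04, -0.32 and -0.12 over 30 values each, and 0 of 3 CC repetitions were closest to their own number in PM. The replicate block gave 0 calls, as did the main tests, so its calls cannot speak to pairing. The number of trees, wells and seedlings limits what could be detected.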
